A study of Mus musculus with 17 samples.

Results

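The genes described here are 38 genes of the cell cycle, read in livers of mice given a high-fat diet (HFD), a single binge of ethanol, both, or neither. They were chosen by symbol and fall into 10 genes of DNA replication (Mcm2 to Mcm7, Pcna, Rrm1, Rrm2, and Tyms), 4 regulators of the entry into S phase (Ccnd1, Ccne1, Ccne2, and E2f1), and 24 genes of mitosis. They are 38 of 21452 genes with a symbol on the array and are read by 63 of its 41174 probes. The question was whether replication and mitotic genes moved together over the 4 groups.

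The arrays measured 1 liver from each of 17 male mice: 4 with a chow diet and a maltose gavage (chow), 4 with chow and an ethanol gavage (1B), 4 with HFD and a maltose gavage (HFD), and 5 with HFD and an ethanol gavage (HFD+1B), the ethanol dose being 5 g/kg. The diets ran for 3 months, every mouse received a gavage, and sampling followed it by 9 hours. The strain is C57BL/6N in the labels and C57BL/6J in the study's methods, and neither gives the age of these mice or names a genetic change in them. Each array set Cy5-labeled cDNA of 1 mouse against a Cy3-labeled reference RNA, which the labels call both an assortment of mouse RNA and liver, and values are given as the log2 ratio of liver to this reference. A ratio of 0 means equal signal in liver and reference, so the sign of a level has no meaning of its own, and levels are compared between groups for the same gene only.

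The arrays were dim. The median Cy5 signal over background of an array was 42 to 137 intensity units, with 42 to 76 for HFD and 78 to 114.5 for chow, and 73.83 to 85.95% of probes were well above background in Cy5. Probes of ribosomal RNA, 5 in number, averaged -3.81 to -2.15 (log2 ratio) in the 4 HFD mice and -1.16 to 1.12 in the other 13 mice. Albumin (Alb), the defining transcript of hepatocytes, averaged 1.36 for chow and 1.19 for HFD and was not called in any comparison. Of the tested hepatocyte markers, 2 of 8 fell (Apob, -2.77, and Tat, -1.36) in HFD against chow, where 6.48% of all genes fell. Of the 8 differences 3 were positive and 5 negative, with a median of -0.26. The mean level of the 8 markers, lowered in HFD mainly by Apob and Tat, was -0.34 to 0.03 for HFD, 0.21 to 0.35 for chow, 0.10 to 0.25 for 1B, and 0.01 to 0.47 for HFD+1B. The part of these differences between groups in the results below was not tested. In whole liver, fewer cells of a type and less RNA per cell cannot be told apart.

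Cells copy their DNA in S phase and divide it in mitosis, and both steps run on genes that are switched on in turn. Mcm2 to Mcm7 form the helicase that opens DNA at replication origins, and their transcripts, like those of the nucleotide enzymes Rrm1, Rrm2, and Tyms, are controlled by E2F factors at the entry into S phase. Genes such as Ccnb2, Top2a, Prc1, and Mki67 are expressed later, in G2 and mitosis, and their promoters are known for CCAAT boxes and for the cell cycle genes homology region (CHR). Adult hepatocytes divide rarely, and many of them are polyploid.

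The promoters of the genes were searched for these motifs. The 250 bases before the start of the gene were read on both strands from RefSeq (GRCm38.p6), which held 30 of the 38 genes. The motif TTTNNCGC, which resembles an E2F site, was present in 3 of 9 replication genes, all of them Mcm genes (Mcm5, Mcm6, and Mcm7), in 0 of 19 mitotic genes, and in 4.94% of 27025 genes with a promoter. CCAAT was present in 8 of 9 replication genes, 16 of 19 mitotic genes, and 37.5% of all genes. The CHR letters TTTGAA were present in 1 of 9 replication genes, 7 of 19 mitotic genes, and 18.3% of all genes. A match describes letters and does not show that a factor binds there. Shown 5′ to 3′ on the strand of the gene are the last 200 of these bases for 3 helicase genes that were lower in HFD+1B than in HFD and for 2 mitotic genes that were higher in HFD+1B than in chow, with matches to the 3 motifs on either strand in capitals. Mcm2 lies at chr6:88898781-88898980, Mcm6 at chr1:128359706-128359905, Mcm7 at chr5:138171884-138172083, Ccnb2 at chr9:70421555-70421754, and Top2a at chr11:99024190-99024389, all on the minus strand.
Mcm2: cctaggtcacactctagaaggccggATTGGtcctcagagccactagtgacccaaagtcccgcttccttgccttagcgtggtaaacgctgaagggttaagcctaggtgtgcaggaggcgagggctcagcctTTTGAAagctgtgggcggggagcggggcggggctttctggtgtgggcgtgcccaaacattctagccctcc
Mcm6: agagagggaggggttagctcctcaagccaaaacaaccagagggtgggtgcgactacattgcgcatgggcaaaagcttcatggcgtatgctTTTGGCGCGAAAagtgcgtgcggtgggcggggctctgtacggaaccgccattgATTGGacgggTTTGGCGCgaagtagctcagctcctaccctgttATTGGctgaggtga
Mcm7: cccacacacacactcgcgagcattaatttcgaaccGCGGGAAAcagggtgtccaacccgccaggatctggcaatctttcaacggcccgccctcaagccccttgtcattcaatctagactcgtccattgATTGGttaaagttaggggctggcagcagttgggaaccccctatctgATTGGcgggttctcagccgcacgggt
Ccnb2: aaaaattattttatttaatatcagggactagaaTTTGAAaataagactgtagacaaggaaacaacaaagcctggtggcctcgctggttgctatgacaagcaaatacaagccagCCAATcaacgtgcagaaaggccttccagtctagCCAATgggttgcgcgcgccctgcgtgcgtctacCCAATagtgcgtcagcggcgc
Top2a: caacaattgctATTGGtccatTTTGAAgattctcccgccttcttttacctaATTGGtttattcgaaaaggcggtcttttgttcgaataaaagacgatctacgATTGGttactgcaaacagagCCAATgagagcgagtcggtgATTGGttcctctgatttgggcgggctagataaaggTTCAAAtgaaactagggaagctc
Mcm6 holds overlapping E2F-like matches and Mcm7 a single one, whereas the printed stretch of Mcm2 holds a CCAAT box and a CHR match but no E2F-like match. Ccnb2 and Top2a hold several CCAAT boxes and at least 1 CHR match.

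Of the 38 genes, 36 had a probe whose Cy5 signal exceeded the background clearly on 4 or more arrays and could be tested, and 32 were above background on all 17. The kinase Aurkb was above background on 0 arrays and the checkpoint kinase Bub1b on 2, so neither was tested and no change can be stated for them. Groups were compared with limma over all genes on the array, with Benjamini-Hochberg adjustment, and a gene counts as called, risen, or fallen when the adjusted p of its brightest probe did not exceed 0.05. By this rule 16 of the 36 genes were called in at least 1 of 6 comparisons, the interaction of diet and ethanol included, where 34.1% of all genes were.

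**Figure D1:**
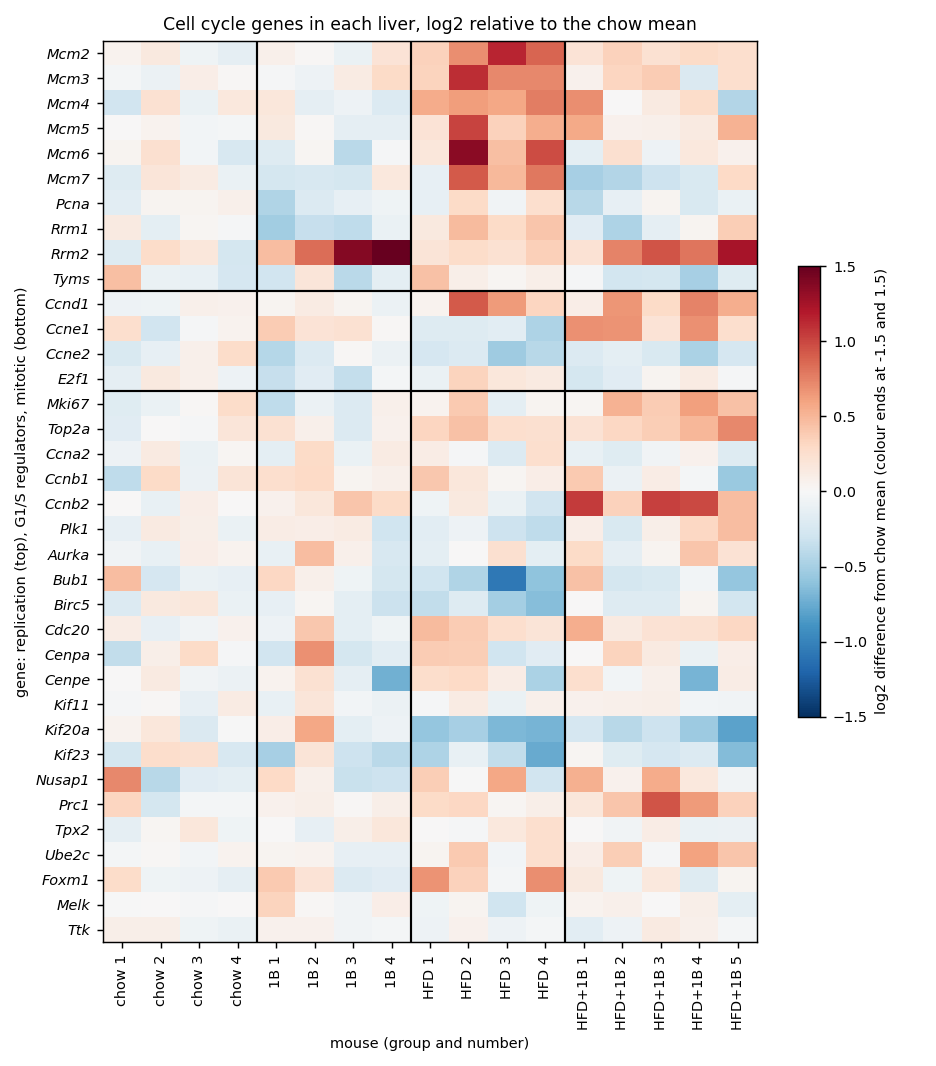
Log2 ratio of each tested gene (rows, by group of genes) in each of the 17 mice (columns, by feeding group), relative to the chow mean of that gene. The Mcm rows are raised in HFD mice 2, 3, and 4 and less so in HFD mouse 1, where Mcm7 is below the chow mean, and the mitotic rows show no common color in any group.

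The helicase genes were higher in HFD, and the mitotic genes as a group were not. In HFD against chow, 5 of 10 replication genes rose (Mcm2, Mcm3, Mcm4, Mcm5, and Mcm6), 0 fell (0 at an unadjusted p of 0.05), and the median over the 10 was 0.52 on the log2 scale, with every difference positive (0.09 to 0.77). Over all 19350 genes tested, 4.5% rose and 6.48% fell, and the median difference was 0.00. Of 22 mitotic genes 0 rose (3 were higher and 4 lower at an unadjusted p of 0.05), 2 fell (Birc5 and Kif20a), and the median was 0.04. For 5 of the 10 replication genes the HFD and chow mice did not overlap, where 9.02% of all genes did not overlap in this direction. With each array centred on its median in place of loess, 3 of the 36 genes rose (Mcm2, Mcm3, and Mcm6) and 3 fell (Birc5, Kif20a, and Bub1), against 5 and 2. The shares of all genes under this scaling were not counted.

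Mcm2, a helicase subunit that also binds histones, had log2 ratios of -0.23, -0.15, -0.35, and -0.42 for chow and -0.21, -0.27, -0.38, and -0.08 for 1B. In HFD it was 0.06, 0.41, 0.85, and 0.59, and in HFD+1B -0.08, 0.06, -0.05, 0.01, and -0.03. All HFD mice thus lay above all chow and all HFD+1B mice, the smallest gap being that between HFD mouse 1 and HFD+1B mouse 2. The rise in HFD against chow was 0.77 (SE 0.13, adjusted p = 0.00139), and in HFD+1B against HFD the difference was -0.50 (SE 0.12, adjusted p = 0.00856). The probe of Mcm2 was dim, with a median signal of 29 to 47.5 intensity units over background in the groups.

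Mcm3, another subunit of the ring, was -0.25, -0.31, -0.12, and -0.21 for chow, 0.11, 0.89, 0.50, and 0.51 for HFD, and -0.16, 0.10, 0.16, -0.43, and 0.03 for HFD+1B. HFD and chow did not overlap, whereas HFD mouse 1 lay within the range of HFD+1B. The differences were 0.72 in HFD against chow (SE 0.15, adjusted p = 0.0053) and -0.56 in HFD+1B against HFD (SE 0.14, adjusted p = 0.01). A dimmer probe of Mcm3 was above background on 3 of 4 HFD arrays, 1 of 5 HFD+1B arrays, and 0 of the chow and 1B arrays, so it gives no second reading of these differences.

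Mcm6, a subunit of the catalytic core, was -0.12, 0.07, -0.21, and -0.41 for chow, 0.01, 1.18, 0.29, and 0.82 for HFD, and -0.31, 0.07, -0.25, -0.01, and -0.10 for HFD+1B. HFD mice 2, 3, and 4 were above every mouse of the other groups, and HFD mouse 1 was not. The log2 difference was 0.74 in HFD against chow (SE 0.19, adjusted p = 0.0213) and -0.69 in HFD+1B against HFD (SE 0.18, adjusted p = 0.0136). Without chow 4, HFD 2, or HFD 4 the rise was 0.66, 0.54, or 0.66 with adjusted p = 0.0713, 0.0535, or 0.0654, and the fall without HFD 4 was -0.61 (adjusted p = 0.0534).

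Mcm7, also of the catalytic core, was -0.27, 0.10, 0.05, and -0.17 for chow, -0.20, 0.85, 0.41, and 0.72 for HFD, and -0.57, -0.51, -0.38, -0.30, and 0.23 for HFD+1B. The HFD mice again spread widely and overlapped both other groups. It was lower in HFD+1B than in HFD by a log2 difference of -0.75 (SE 0.19, adjusted p = 0.011), the largest fall among Mcm2 to Mcm7. The difference of 0.52 in HFD against chow missed the threshold (adjusted p = 0.11, or 0.0326 with the replicate number as a block).

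Mcm4 was -0.30, 0.21, -0.11, and 0.14 for chow, 0.54, 0.61, 0.57, and 0.76 for HFD, and 0.69, -0.01, 0.11, 0.26, and -0.46 for HFD+1B. The HFD mice were close together and above all chow mice, and HFD+1B mice ran from below the lowest chow mouse to within HFD. The differences of 0.63 (SE 0.18, adjusted p = 0.0304) and -0.50 (SE 0.17, adjusted p = 0.047) were near the threshold. With the replicate number as a block, the fall was -0.35 and not called (adjusted p = 0.0965). A dimmer probe of Mcm4, above background on all 17 arrays, gave 0.06 (adjusted p = 0.881) and -0.15 (adjusted p = 0.618). The rise missed the threshold without chow 1, chow 3, HFD 2, HFD 3, or HFD 4 (adjusted p = 0.0509 to 0.0975). The fall was called only with all mice in, or without chow 1, chow 2, 1B 1, or HFD+1B 1, and had an adjusted p of 0.0522 to 0.123 without any other mouse.

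Mcm5 was 0.07, 0.12, 0.02, and 0.03 for chow, 0.27, 1.08, 0.41, and 0.60 for HFD, and 0.63, 0.12, 0.14, 0.19, and 0.58 for HFD+1B. Each HFD mouse was above each chow mouse, and HFD+1B mice 1 and 5 were at the level of HFD. The rise was 0.53 (SE 0.15, adjusted p = 0.0361), and the difference of -0.26 between HFD+1B and HFD was not called (adjusted p = 0.241). The rise lost the call without any 1 of the 4 chow mice, HFD 2, or HFD 4 (adjusted p = 0.0582 to 0.0969).

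**Figure D2:**
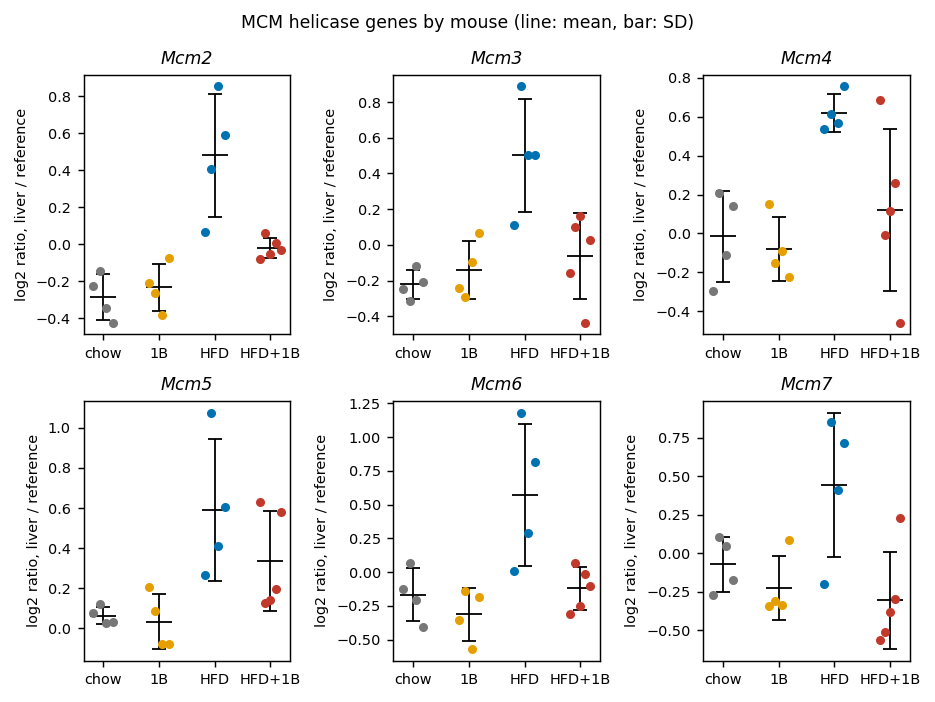
Log2 ratio of liver to reference for Mcm2 to Mcm7 in every mouse (points) with the group mean and SD (bars) in chow, 1B, HFD, and HFD+1B. The HFD means are the highest for each of the 6 genes, and the HFD mice spread more than the others for Mcm2, Mcm3, Mcm5, Mcm6, and Mcm7.

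The 6 Mcm genes had differences of the same sign in both comparisons of HFD. Their median difference was 0.68 in HFD against chow (0.52 to 0.77, 5 genes called), -0.05 in 1B against chow, 0.15 in HFD+1B against chow, and -0.53 in HFD+1B against HFD (-0.75 to -0.26, 5 genes called). By mouse, the median of the 6 relative to the chow means was 0.27, 0.97, 0.53, and 0.78 for HFD, -0.07 to 0.16 for chow, -0.12 to 0.07 for 1B, and 0.10 to 0.25 for HFD+1B. HFD mouse 1 was the lowest HFD mouse for 6 of the 6 genes, and HFD mouse 2 the highest for 4. These genes were read from the same arrays, so their spread over mice is not independent. The comparisons of HFD with chow and of HFD+1B with HFD share the 4 HFD arrays, so the rise in one and the fall in the other are not separate evidence.

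Replication genes outside the helicase were not called in HFD against chow. Pcna, the sliding clamp of DNA polymerase, was -0.16 to 0.06 for chow, -0.13 to 0.28 for HFD, and -0.43 to 0.03 for HFD+1B, and its differences of 0.09 in HFD against chow (adjusted p = 0.679) and -0.26 in HFD+1B against HFD (adjusted p = 0.127) were not called. Tyms, which makes thymidylate, differed by 0.16 (adjusted p = 0.563) and -0.41 (adjusted p = 0.0616). With the replicate number as a block, both were called lower in HFD+1B than in HFD, Pcna by -0.27 (adjusted p = 0.0467) and Tyms by -0.42 (adjusted p = 0.033). Rrm1, the large subunit of ribonucleotide reductase, was 0.15, -0.14, 0.05, and -0.01 for chow, 0.15, 0.49, 0.30, and 0.43 for HFD, and -0.16, -0.45, -0.12, 0.05, and 0.38 for HFD+1B. It differed by 0.33 in HFD against chow (adjusted p = 0.149) and by -0.40 in HFD+1B against HFD (SE 0.14, adjusted p = 0.0462), with HFD+1B mouse 5 inside the range of HFD. The second probe of Rrm1, above background on 14 arrays with a median signal of 15.75 to 24 intensity units, gave 0.01 in HFD+1B against HFD (adjusted p = 0.951), and the call was lost in 13 of the 17 fits that left out a mouse, with adjusted p = 0.0504 to 0.116 without any chow mouse, 1B 2 or 3, HFD 2, 3, or 4, or HFD+1B 1, 2, 3, or 4.

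Rrm2, the small and regulated subunit of the same enzyme, took another course and rose with ethanol on chow. It was -1.04, -0.57, -0.67, and -1.11 for chow, -0.38, -0.0049, 0.53, and 1.04 for 1B, -0.65, -0.57, -0.62, and -0.49 for HFD, and -0.63, -0.10, 0.10, -0.04, and 0.39 for HFD+1B. The 1B mice all lay above the chow mice but spread over more than the range of any other group, and HFD+1B mouse 1 stayed at the level of chow and HFD. In 1B against chow, Rrm2 was higher by 1.14 (2.21-fold, SE 0.24, adjusted p = 0.0113). It was the only 1 of the 36 genes called in this comparison, in which 4.13% of all genes were called (2.09% higher and 2.05% lower), and the only one to pass 2-fold in any comparison (0.636% of all genes were at least 2-fold higher at an unadjusted p of 0.05 in 1B against chow). In HFD+1B against chow it was higher by 0.79 (SE 0.23, adjusted p = 0.0261), a call that was lost without chow 1 (adjusted p = 0.0736), chow 4 (0.0888), HFD+1B 3 (0.0544), or HFD+1B 5 (0.0636). The difference of 0.53 in HFD+1B against HFD was not called (adjusted p = 0.124).

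Ethanol after HFD went with lower replication genes. In HFD+1B against HFD, 6 of 10 replication genes fell (Mcm2, Mcm3, Mcm4, Mcm6, Mcm7, and Rrm1), 0 rose (Rrm2 was higher at an unadjusted p of 0.05), and the median was -0.45, with 9 of 10 differences negative. Over all genes, 8.4% fell and 11% rose, and the median was 0.01. The groups did not overlap for Mcm2 and Tyms, and 7.01% of all genes did not overlap in this direction. Of the 22 mitotic genes 1 rose (Ccnb2) and 0 fell, 6 were higher and 1 lower (Foxm1) at an unadjusted p of 0.05, and the median was 0.11. Against chow, the HFD+1B mice had a replication median of 0.09, with 1 gene called (Rrm2), where 16.3% of all genes were called, and in HFD+1B against 1B it was 0.14 with 0 called by limma (0 at an unadjusted p of 0.05 as well), where 11.4% of all genes were called.

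The balance of rises and falls between HFD+1B and HFD depended on how the arrays were scaled. Over all 36 genes 2 rose and 6 fell. With each array centred on its median, which moved the median of all genes in this comparison to 0.14, 8 rose (Rrm2, Ccne1, Mki67, Ccnb2, Plk1, Bub1, Birc5, and Prc1) and 2 fell (Mcm2 and Mcm7), and relative to the median of all genes the replication median was still negative and the mitotic median positive (-0.24 and 0.27 before that shift is taken off). With slide as a block, 4 rose and 4 fell. With the replicate number as a block, 7 of the 8 calls were kept (Mcm4 was lost) and 5 were gained (Pcna, Tyms, and Foxm1 lower, and Bub1 and Birc5 higher). From the Cy5 signal alone, without the reference channel, 3 of the 27 calls made over all comparisons were kept: Mcm2 in HFD against chow and in HFD+1B against HFD, and Ccne1 in HFD+1B against HFD. The shares of all genes that rose or fell under these other settings were not counted, so their counts have no background beside them.

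**Figure D3:**
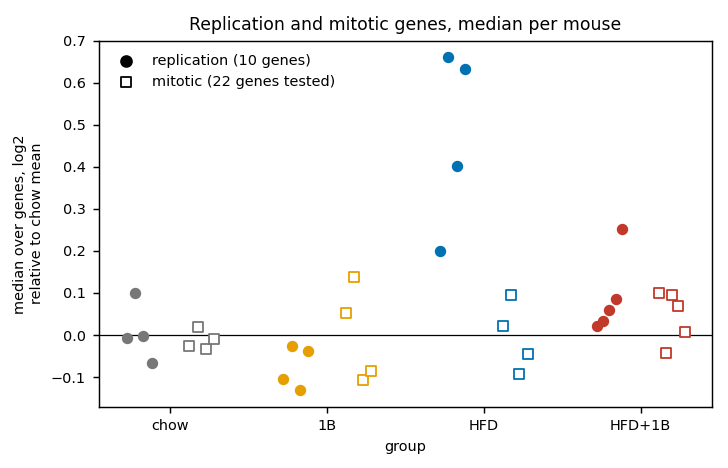
Median over the 10 replication genes and over the 22 tested mitotic genes in each mouse (points), in log2 relative to the chow mean of each gene, for the 4 groups. The replication medians of the 4 HFD mice (0.20 to 0.66) lie above those of all chow and 1B mice, the HFD+1B mice lie between 0.02 and 0.25, and the mitotic medians of all mice lie between -0.11 and 0.14.

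Per mouse, the replication median relative to chow was 0.20, 0.66, 0.40, and 0.63 for HFD, -0.07 to 0.10 for chow, -0.13 to -0.03 for 1B, and 0.02 to 0.25 for HFD+1B. The mitotic median stayed within -0.03 to 0.02 for chow, -0.11 to 0.14 for 1B, -0.09 to 0.10 for HFD, and -0.04 to 0.10 for HFD+1B, so the groups overlapped throughout. The interaction, which is the effect of ethanol on HFD minus its effect on chow, was negative for 10 of 10 replication genes with a median of -0.49, where 9743 of 19350 genes were negative. However, limma called 0 of the 36 genes in the interaction (7 had an unadjusted p of 0.05 or less), against 4.39% of all genes, so a different response to ethanol on the 2 diets was not shown for any of them. The lowest adjusted p was that of Mcm3 (-0.64, adjusted p = 0.0824), and Ccnb2 had 0.61 (adjusted p = 0.0976).

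Among the regulators of S phase entry, the E cyclin Ccne1 was called and Ccne2 was not; both activate Cdk2. Ccne1 was -0.02, -0.55, -0.28, and -0.21 for chow, 0.12, -0.06, -0.03, and -0.24 for 1B, -0.46, -0.46, -0.42, and -0.73 for HFD, and 0.43, 0.40, -0.06, 0.42, and -0.01 for HFD+1B. Every HFD+1B mouse was above every HFD mouse, and HFD+1B mouse 3 was below the highest chow mouse. Ccne1 was higher by 0.75 in HFD+1B than in HFD (SE 0.13, adjusted p = 0.000914), which a dimmer probe gave as 0.47 (adjusted p = 0.0182), and by 0.50 in HFD+1B than in chow (SE 0.13, adjusted p = 0.0135, or 0.0592 without chow 2), which the dimmer probe gave as 0.37 without a call (adjusted p = 0.0664). Ccne2 differed by -0.35 in HFD against chow and was not called (adjusted p = 0.078).

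Ccnd1, the D cyclin through which growth signals enter the cycle, was -0.43, -0.42, -0.28, and -0.30 for chow, -0.32, -0.23, -0.32, and -0.45 for 1B, -0.30, 0.56, 0.28, and -0.04 for HFD, and -0.27, 0.30, -0.07, 0.38, and 0.18 for HFD+1B. All HFD+1B mice were above all chow mice, the lowest by a small margin, and the mice on HFD differed widely among themselves with or without ethanol. The difference in HFD+1B against chow was 0.47 (SE 0.15, adjusted p = 0.0455), and those in HFD against chow (0.48, adjusted p = 0.0624) and in HFD+1B against 1B (0.44, adjusted p = 0.0795) were not called. The call was lost without any chow or 1B mouse, HFD 4, or HFD+1B 2, 4, or 5 (adjusted p = 0.0511 to 0.114). E2f1, the activating E2F factor, differed by 0.13 in HFD against chow (adjusted p = 0.503) and by -0.19 in HFD+1B against HFD (adjusted p = 0.245).

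The mitotic genes called were Ccnb2, Top2a, Prc1, and Mki67, higher in HFD+1B than in chow, 1B, or both, and Kif20a and Birc5, lower in HFD than in chow. Of those higher in HFD+1B, only Ccnb2 was also called against HFD. In that comparison Top2a differed by 0.11 (adjusted p = 0.53) and Mki67 by 0.31 (adjusted p = 0.118), and Prc1 was not called either. In HFD+1B against chow, 3 of 22 rose (Ccnb2, Top2a, and Prc1) and 1 fell (Kif20a), with a median of 0.02, where 8.89% of all genes rose and 7.41% fell, so the share of mitotic genes called was near that of all genes. In HFD+1B against 1B, 3 rose (Mki67, Top2a, and Ccnb2) and 1 fell (Kif20a), with a median of 0.06, where 6.27% of all genes rose and 5.15% fell. In 1B against chow 0 were called (0 at an unadjusted p of 0.05). The comparisons with chow share the 4 chow arrays, and those with HFD+1B the 5 HFD+1B arrays.

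Ccnb2, a B cyclin that drives entry into mitosis with Cdk1, was -0.46, -0.57, -0.37, and -0.45 for chow, -0.40, -0.29, -0.05, and -0.17 for 1B, -0.52, -0.31, -0.57, and -0.75 for HFD, and 0.58, -0.11, 0.56, 0.52, and 0.0028 for HFD+1B. Every HFD+1B mouse was above every chow and HFD mouse, and HFD+1B mouse 2 fell within 1B. It was higher in HFD+1B by 0.77 against chow (SE 0.14, adjusted p = 0.000946), by 0.85 against HFD (SE 0.14, adjusted p = 0.000669), and by 0.54 against 1B (SE 0.14, adjusted p = 0.0201). The difference from 1B was not called without 1B 1 (adjusted p = 0.0715), 1B 2 (0.0571), HFD+1B 3 (0.0509), or HFD+1B 4 (0.0558). Its partner in function Ccnb1 was 0.14 ± 0.30 for chow, 0.31 ± 0.13 for 1B, 0.32 ± 0.16 for HFD (SD, n = 4 each), and 0.10 ± 0.35 for HFD+1B (SD, n = 5), and the S and G2 cyclin Ccna2 was 0.45 ± 0.11, 0.49 ± 0.20, 0.48 ± 0.20, and 0.35 ± 0.11 in the same order. Neither was called in any comparison.

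Top2a, the topoisomerase that untangles sister chromosomes, was -0.37, -0.20, -0.23, and -0.03 for chow, 0.02, -0.13, -0.41, and -0.15 for 1B, 0.11, 0.23, 0.04, and 0.03 for HFD, and 0.01, 0.10, 0.16, 0.29, and 0.51 for HFD+1B. Both groups on HFD were above all chow mice, though Top2a was not called in HFD against chow (0.31, adjusted p = 0.0942). It was higher in HFD+1B by 0.42 against chow (SE 0.11, adjusted p = 0.0128) and by 0.38 against 1B (SE 0.11, adjusted p = 0.0329), the latter lost without 1B 2, 3, or 4 or HFD+1B 4 or 5 (adjusted p = 0.0576 to 0.129). A dimmer probe of Top2a was above background on 7 of 17 arrays, none of them of chow mice, and gives no second reading.

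Prc1, which bundles microtubules in the dividing cell, was 0.25, -0.34, -0.10, and -0.10 for chow and 0.09, 0.34, 0.87, 0.56, and 0.28 for HFD+1B. Chow mouse 1 lay above HFD+1B mouse 1, so the groups overlapped. The difference was 0.50 (SE 0.14, adjusted p = 0.0182, or 0.0748 without chow 2), and it was -0.16 in the 1 of 4 slides where chow 1 and HFD+1B 1 were compared, against up to 0.97 in the others. Against 1B, Prc1 differed by 0.44 (adjusted p = 0.0503). In HFD it was 0.22, 0.24, -0.05, and 0.01, and HFD+1B was not called against HFD.

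Mki67, the marker of cycling cells that coats mitotic chromosomes, was -0.64, -0.36, -0.47, and -0.19 for 1B and -0.23, 0.26, 0.11, 0.35, and 0.17 for HFD+1B. HFD+1B mouse 1 was the only one within the range of 1B. The difference was 0.55 (SE 0.14, adjusted p = 0.0144, or 0.0579 without 1B 1), and against chow it was 0.40 and not called (adjusted p = 0.0551), while a dimmer probe of Mki67 gave 0.44 against 1B (adjusted p = 0.073) and 0.54 against chow (adjusted p = 0.0193).

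Kif20a and Birc5 went down. Kif20a, a kinesin of the spindle midzone, was 1.05, 1.16, 0.77, and 0.99 for chow, 1.09, 1.58, 0.85, and 0.91 for 1B, 0.41, 0.50, 0.32, and 0.30 for HFD, and 0.75, 0.58, 0.68, 0.45, and 0.19 for HFD+1B. All mice on HFD, with or without ethanol, were below all mice on chow diet. The differences were -0.61 in HFD against chow (SE 0.15, adjusted p = 0.0136), -0.46 in HFD+1B against chow (SE 0.14, adjusted p = 0.0308), and -0.58 in HFD+1B against 1B (SE 0.14, adjusted p = 0.0125). The second was lost without chow 1, 2, or 4 or HFD+1B 4 or 5 (adjusted p = 0.0663 to 0.0998), and a dimmer probe of Kif20a gave -0.29, -0.29, and -0.28 without a call (adjusted p = 0.19 to 0.252).

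Birc5 (survivin), a subunit of the chromosomal passenger complex, was 0.78, 1.13, 1.16, and 0.89 for chow, 0.62, 0.79, 0.48, and 0.35 for HFD, and 0.99, 0.80, 0.80, 1.04, and 0.72 for HFD+1B. HFD mouse 2 was just above the lowest chow mouse, and the other HFD mice were below all chow mice. The difference in HFD against chow was -0.43 (SE 0.12, adjusted p = 0.0282), and without chow 2, chow 3, HFD 3, or HFD 4 the adjusted p was 0.0758, 0.0857, 0.0818, or 0.0911. For HFD+1B against HFD it was 0.31 and not called (adjusted p = 0.0653), and 0.34 with the replicate number as a block (adjusted p = 0.0407).

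**Figure D4:**
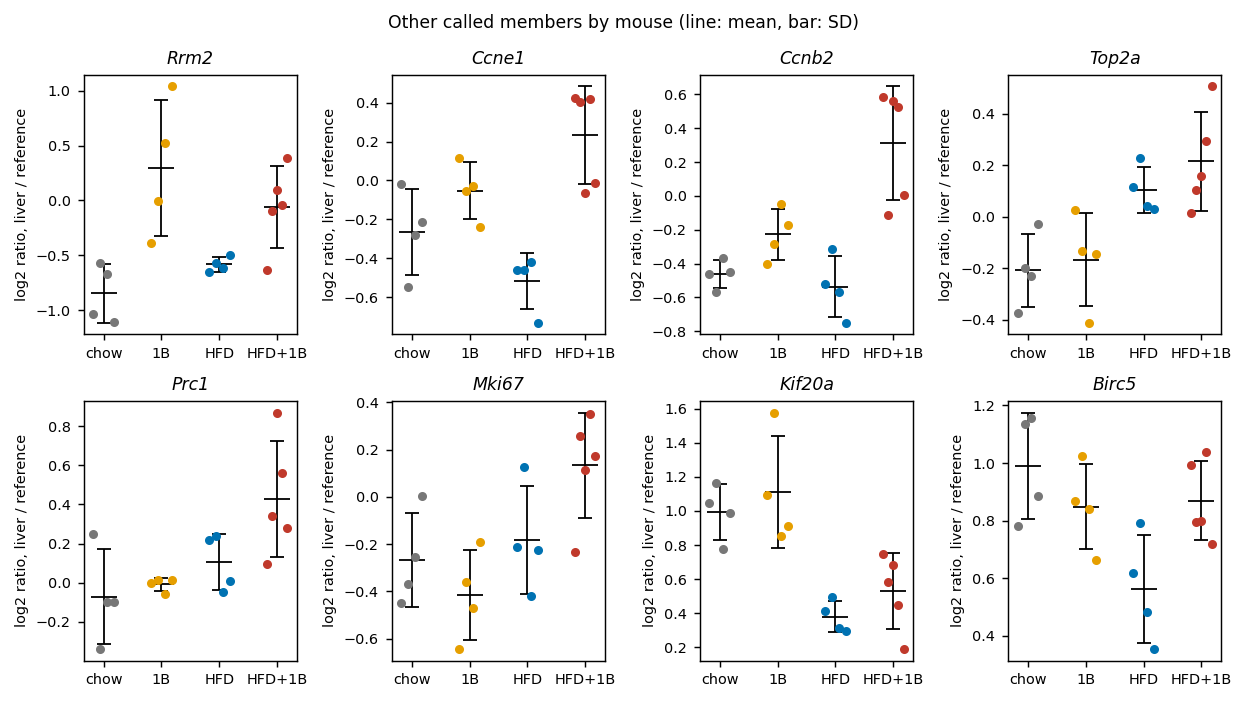
Log2 ratio of liver to reference in every mouse (points) with the group mean and SD (bars) for Rrm2, Ccne1, Ccnb2, Top2a, Prc1, Mki67, Kif20a, and Birc5. Rrm2 is highest in 1B, Ccnb2 and Ccne1 in HFD+1B, and Kif20a is lower in both groups on HFD than in both on chow diet.

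The other mitotic genes did not pass the test without a block. Foxm1, the factor that switches on genes of G2 and mitosis, was 0.42 to 0.83 for chow, 0.53 to 1.25 for HFD, and 0.37 to 0.72 for HFD+1B, with differences of 0.42 in HFD against chow (adjusted p = 0.109) and -0.40 in HFD+1B against HFD (adjusted p = 0.0801, or 0.0459 with the replicate number as a block). The checkpoint kinase Bub1 differed by -0.61 in HFD against chow (adjusted p = 0.0702) and by 0.47 in HFD+1B against HFD (adjusted p = 0.103), the latter 0.59 with the replicate number as a block (adjusted p = 0.00403). Cdc20, which activates the anaphase-promoting complex, differed by 0.33 in HFD against chow (adjusted p = 0.0965). Kif11, the kinesin that separates spindle poles, differed by 0.02 in HFD against chow with its brightest probe. A second probe of Kif11, above background on all 17 arrays, averaged 0.09 for chow, -0.04 for HFD, and 0.07 for HFD+1B. The remaining probe averaged 0.17, -0.51, and -0.52 and was above background on 4 of 4 chow, 1 of 4 HFD, and 3 of 5 HFD+1B arrays, so the size of its difference is not given. Tpx2, Melk, and Ttk were dim, with a median signal of 11 to 23.5 intensity units in every group, and a ratio of so dim a probe is compressed toward that of the background.

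**Figure D5:**
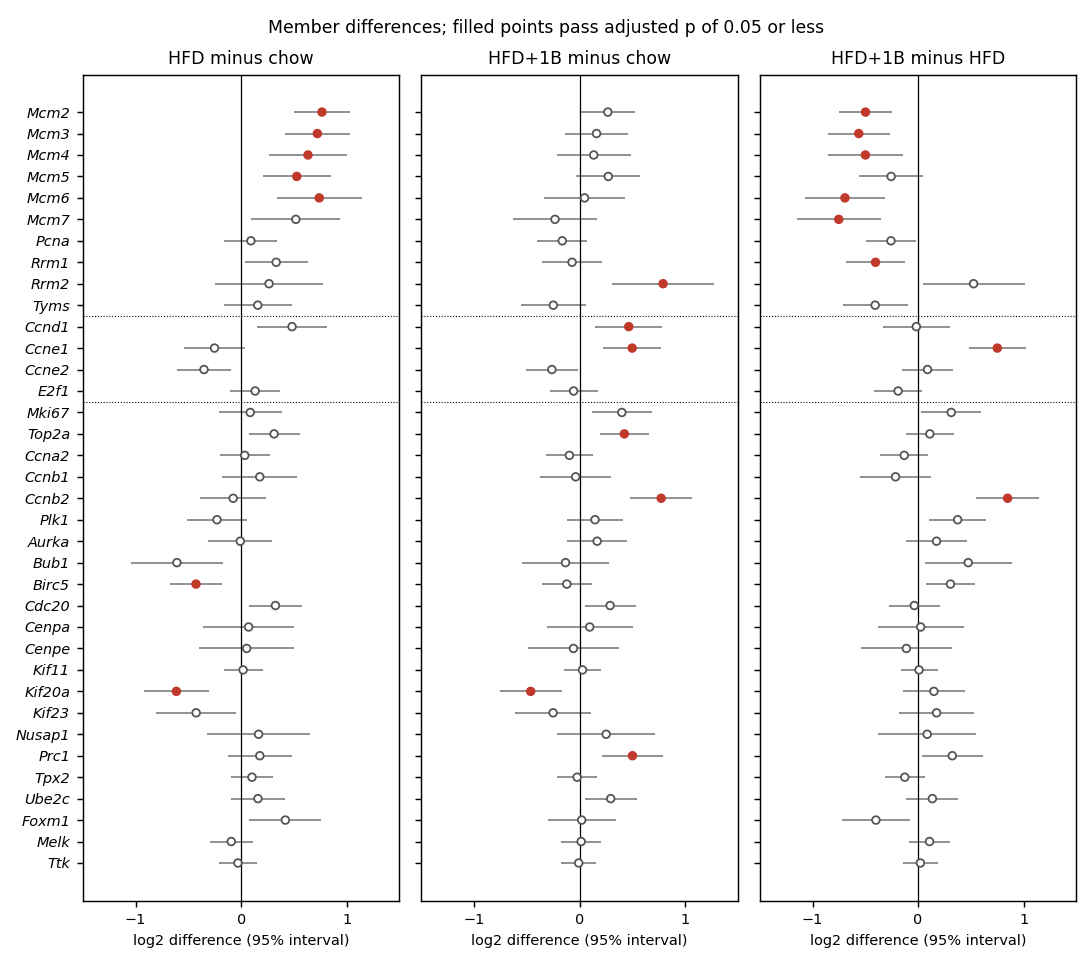
Log2 difference of each tested gene with its 95% confidence interval in HFD against chow, HFD+1B against chow, and HFD+1B against HFD, with filled points for an adjusted p of 0.05 or less. The Mcm genes lie to the right in HFD against chow and to the left in HFD+1B against HFD, and most mitotic genes lie near 0 in all 3 panels.

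Where a slide held both groups, called differences mostly kept their direction within it. This was so on every slide for 7 of 7 genes in HFD against chow, 7 of 8 in HFD+1B against HFD (Mcm4 was 0.15 on 1 slide), 6 of 7 in HFD+1B against chow (all but Prc1), 1 of 1 in 1B against chow, and 2 of 4 in HFD+1B against 1B (Top2a was -0.01 and Ccnb2 -0.06 on 1 slide). For Mcm2 the differences within a slide ran from 0.29 to 1.28 in HFD against chow and from -0.91 to -0.14 in HFD+1B against HFD, on 3 and 4 slides. The genes were called on these same arrays. Where the groups did not overlap, the direction on each slide was fixed in advance, so these counts are not separate evidence.

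Genes of neighboring steps, taken from lists by function that were set with earlier results of these data known, were called in both directions. The shares of all genes to set beside these counts are 4.5% risen and 6.48% fallen in HFD against chow, 8.89% and 7.41% in HFD+1B against chow, and 11% and 8.4% in HFD+1B against HFD. Of 35 other replication genes, 2 rose and 5 fell in HFD against chow (median 0.10), and 1 rose and 11 fell in HFD+1B against HFD (median -0.21). Rpa2, a subunit of the protein that coats single-stranded DNA, had the course of the Mcm genes, with 0.47 in HFD against chow (adjusted p = 0.0177) and -0.66 in HFD+1B against HFD (adjusted p = 0.000844). Lig1, of the same list, had the opposite course, with -0.94 (adjusted p = 0.00459) and 0.89 (adjusted p = 0.00248) in the same order. Dut, which keeps uracil out of DNA, was lower in HFD+1B than in HFD by a difference of -0.79 (adjusted p = 0.000933). Mcm10, which helps to start the helicase, and Tk1, the thymidine kinase of S phase, were lower than chow in each of the other groups. Mcm10 averaged 0.81 for chow, -0.12 for 1B, 0.02 for HFD, and -1.32 for HFD+1B, with -2.13 in HFD+1B against chow (adjusted p = 6.96e-06), and Tk1 averaged 1.22, -0.55, -0.25, and -0.996, with -2.22 (adjusted p = 1.25e-06). Against chow both also fell in 1B and in HFD, Mcm10 by 0.93 (adjusted p = 0.0374) and 0.79 (adjusted p = 0.0446), and Tk1 by 1.77 (adjusted p = 8.71e-05) and 1.48 (adjusted p = 0.000383). Hells, a chromatin remodeler, fell by 0.66 in HFD (adjusted p = 0.00109) and by 0.44 in HFD+1B (adjusted p = 0.0053), both against chow.

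Of 41 other mitotic genes, 2 rose and 2 fell in HFD against chow, 2 rose in HFD+1B against chow, and 3 rose and 3 fell in HFD+1B against HFD. Kif22, a chromosome-bound kinesin, averaged 0.20 for chow, -0.12 for 1B, -1.69 for HFD, and -0.27 for HFD+1B, with differences of -1.89 in HFD against chow (adjusted p = 0.0002) and 1.42 in HFD+1B against HFD (adjusted p = 0.000552). Spc25, a kinetochore subunit, was higher by 0.62 in HFD (adjusted p = 0.00477) and in HFD+1B (0.62, adjusted p = 0.00147), both against chow, and so was Nek2, a kinase of the centrosome, by 0.40 (adjusted p = 0.0358) and 0.61 (adjusted p = 0.000776). Racgap1, a regulator of cytokinesis, rose in HFD+1B against HFD by 0.71 (adjusted p = 0.00542), and separase (Espl1) fell by 0.45 (adjusted p = 0.0117).

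Of 26 other cyclins, kinases, and E2F partners, 2 rose and 1 fell in HFD against chow, and 2 rose and 3 fell in HFD+1B against HFD. Cdk4, the kinase of the D cyclins, had the course of the Mcm genes (0.37, adjusted p = 0.0213, and -0.50, adjusted p = 0.00121). Mybl2, a partner in the control of mitotic genes, had the opposite course (-0.67, adjusted p = 0.035, and 0.83, adjusted p = 0.00474). In HFD+1B against chow, Ccng1, a target of p53, rose by 0.60 (adjusted p = 0.000125) and the repressor E2f6 fell by 0.63 (adjusted p = 0.000395), and Ccnh, a subunit of the kinase that activates Cdks, was lower in HFD+1B than in HFD by a difference of -0.56 (adjusted p = 0.00185).

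Some genes that hold back the cycle differed by more than any of the 36 tested genes, among which Rrm2 had the largest difference (1.14). So did Tk1, Mcm10, and Kif22 of the lists above. Of 17 genes that hold back the cycle, 1 rose and 3 fell in HFD against chow, 4 rose and 3 fell in HFD+1B against chow, and 6 rose and 1 fell in HFD+1B against HFD. Cdkn1a, the Cdk inhibitor p21, averaged -3.41 for chow, -2.18 for 1B, -1.85 for HFD, and 0.62 for HFD+1B, a difference of 1.56 in HFD (adjusted p = 0.0242) and 4.03 in HFD+1B (adjusted p = 2.87e-06) against chow, and of 2.47 in HFD+1B against HFD (adjusted p = 0.000478). Members of the BTG family, which slow proliferation, were called in both directions. Compared with chow, in HFD+1B Btg1 rose by 0.82 (adjusted p = 0.0062), Btg2 by 2.62 (adjusted p = 0.000138), and Btg3 by 2.32 (adjusted p = 1.55e-05). Tob1, a further member of the family, was 2.15-fold lower in the same comparison (adjusted p = 0.00344), and on the log2 scale it fell by 1.15 in 1B against chow (adjusted p = 0.0128), and by 1.04 in HFD against chow (adjusted p = 0.0135). The pocket protein Rbl2 fell by 0.71 in HFD+1B against chow (adjusted p = 0.000138).

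Markers of cells other than hepatocytes also differed between the groups. For comparison, 4.5% of all genes rose and 6.48% fell in HFD against chow. In HFD+1B against chow 8.89% rose and 7.41% fell, and in HFD+1B against HFD 11% rose and 8.4% fell. Of 11 tested macrophage and Kupffer cell markers (Timd4 was not above background often enough to be tested), 4 rose in HFD against chow, 4 in HFD+1B against chow, and 0 in HFD+1B against HFD (1 was lower at an unadjusted p of 0.05), and their mean level was -0.60 to -0.04 for chow, -0.46 to -0.23 for 1B, 0.19 to 0.29 for HFD, and -0.15 to 0.58 for HFD+1B. Of 10 stellate cell markers, 4 rose in HFD and 8 in HFD+1B against chow, with mean levels of -0.76 to -0.57 for chow, -0.59 to -0.47 for 1B, -0.06 to 0.22 for HFD, and -0.21 to 0.78 for HFD+1B. Of 11 neutrophil markers, 2 rose in HFD against chow, and 4 rose and 1 fell in HFD+1B against chow, with mean levels of -0.50 to -0.11 for chow, -0.35 to 0.29 for 1B, -0.24 to 0.19 for HFD, and 0.24 to 0.68 for HFD+1B. In HFD+1B against chow the median difference of the 11 was -0.03, with 5 higher and 6 lower. The mean was carried largely by Lcn2, which differed by 6.17. Of 8 endothelial markers, 2 rose in HFD against chow (Stab2 and Lyve1), and in HFD+1B against HFD 2 rose (Lyve1 and Cdh5) and 3 fell, Kdr by 1.23, Clec4g by 0.80, and Stab2 by 0.49, with mean levels of -0.44 to -0.30 for chow, -0.24 to -0.13 for 1B, -0.18 to 0.03 for HFD, and -0.21 to 0.01 for HFD+1B. In HFD+1B against chow 2 rose (Lyve1 and Cdh5) and 2 fell (Kdr and Clec4g), with a median difference of 0.07. The higher mean was carried largely by Lyve1, which differed by 3.19. Of 6 cholangiocyte markers, 2 fell in HFD against chow (Krt7 and Cftr) and 3 rose in HFD+1B against HFD (Krt7, Sox9, and Cftr), with mean levels of -0.33 to -0.15 for chow, -0.42 to -0.06 for 1B, -0.45 to -0.15 for HFD, and -0.02 to 0.64 for HFD+1B. In HFD+1B against chow 1 of the 6 rose (Spp1, 1.84, adjusted p = 0.00953), which carried much of the higher mean. All 6 differences there were positive, with a median of 0.19. Between HFD+1B and HFD, 3 stellate markers rose, and 3 neutrophil markers rose and 1 fell. Whether the cell cycle transcripts came from hepatocytes or from these cells was not tested.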

How the data were processed

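Livers of 17 mice were measured on Agilent 44K mouse 60-mer arrays, 1 array per mouse, with liver cDNA in Cy5 and a common reference in Cy3 on every array, without a dye swap. The authors scanned the arrays with Agilent Feature Extraction 11.5.1.1, and the deposited scanner files hold median signals and median local backgrounds of 45018 spots as raw intensity. A log2 ratio table for 41174 probes was deposited by the authors too, which equals the ratio of the processed signals in the scanner files (largest difference 2.7e-06) and which here gave the gene symbols and an alternative (0 sample columns of it were not used).

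From the 43379 non-control spots, intensities were background corrected (normexp, offset 50), log2 ratios were normalized by loess within arrays with control spots and outlier spots at weight 0, outlier spots were left out, and spots of a probe were averaged, with limma 3.58.1 in R 4.3.3 and the data.table package (1.17.8). Probes entered the test if their Cy5 signal was marked as clearly over background by the scanner software on 4 or more of the 17 arrays and if every group had a value (34650 probes, 19350 genes by the brightest Cy5 probe). All 17 arrays were fitted with group means (lmFit and eBayes), with 13 residual degrees of freedom, for 6 comparisons, with Benjamini-Hochberg adjustment over all probes. This replaces the study's 2-fold rule, which its figure legend gives without a p. A 2-fold change with an unadjusted p was used here as an alternative, as was the analysis of variance with Tukey test of the methods. The offset compresses ratios of dim probes, and the number of mice limits precision. The calculation was tested on simulated data.

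The genes and lists were chosen with earlier results of these data known. Named are all called genes among the 38, Pcna, Ccnb1, Ccna2, Foxm1, E2f1, and Cdkn1a, and up to 5 genes of lowest adjusted p from each list of other cell cycle genes, and other genes named were chosen after their values were seen. Same-numbered mice deviated together in HFD and HFD+1B (correlations of 0.15 to 0.48 over 4 pairs), which the labels do not explain. The pairs numbered 1, 3, and 4 also shared a slide, so pairing and slide cannot be told apart for them. Blocked values that change a call stand beside the results of that comparison, and those of other comparisons are listed at the end. Marker lists not given above were also read. In HFD against chow, limma called 0 of 8 T and NK cell, 0 of 6 B cell, and 0 of 8 erythroid genes (2, 1, and 1 at an unadjusted p of 0.05) and 1 of 4 neutrophil precursor genes (higher). Between HFD+1B and HFD it called 1 T and NK cell and 1 B cell gene higher, 1 erythroid gene lower, and 0 neutrophil precursor genes (0 at an unadjusted p of 0.05).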

Additional observations from a re-analysis of the deposited data

Results flagged for a closer look

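Within a group, the mouse farthest from the others was marked when its gap to the nearest mouse took most of the range of the group (Dixon's test). This held in 15 of 232 groups examined, where chance gives 11.6. Among the replication genes, Mcm7 was 0.09 in 1B mouse 4 and -0.34 to -0.31 in the other 1B mice (gap over range 0.937), Pcna was low in chow mouse 1 (0.847), and Tyms was 0.91 in HFD mouse 1 against 0.50 to 0.56 in the other HFD mice (0.847). The replication median was 0.25 in HFD+1B mouse 5 and 0.02 to 0.09 in the other HFD+1B mice (0.721). Ccne1 was low in HFD mouse 4 (0.878). Among the mitotic genes, Plk1 was low in 1B mouse 4 (0.949), and Cdc20 and Cenpa were high in 1B mouse 2 (0.854 and 0.867). Of genes outside the 38, Cdkn1a was -0.44 in 1B mouse 4 and -2.90 to -2.62 in the other 1B mice (0.887), Ccnh and Btg1 were low in chow mouse 1 (0.911 and 0.893), Kif22 was low in 1B mouse 1 (0.845), and Dut was low in the mouse numbered 1 of chow, 1B, and HFD+1B (0.830, 0.902, and 0.750).

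The effect of ethanol differed between HFD and chow for 9 genes of the other cell cycle lists by limma's interaction term. It was higher on HFD for Lig1 (1.11, adjusted p = 0.0242), Ccnd3 (0.58, adjusted p = 0.0352), Hells (0.58, adjusted p = 0.0333), Kif22 (1.74, adjusted p = 0.0112), Ccng1 (0.47, adjusted p = 0.0433), Btg1 (1.02, adjusted p = 0.0442), and Btg2 (2.43, adjusted p = 0.0225), and lower for Espl1 (-0.82, adjusted p = 0.0148) and Ccnf (-1.02, adjusted p = 0.033).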

How the results depend on the processing

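No call of the 38 genes reversed under any alternative, and 12 of 27 calls held without each mouse in turn. Calls kept were 27 without background subtraction, 17 with median centring, 24 in the authors' table, 3 from Cy5 alone (adjusted p up to 0.707), 25 of 25 with probes above background on all 17 arrays, 24 without a filter, 22 with the mean over probes, 23 with slide as a block, and 24 by the Tukey test of the methods. Medians moved beyond the spread between mice as follows, and the cause was not tested. With median centring, HFD+1B minus HFD was -0.24 (replication) and 0.27 (mitotic), and the interaction -0.27 and 0.28. In the authors' table, HFD minus chow was 0.70 and 0.16, HFD+1B minus chow 0.11 (mitotic), and HFD+1B minus HFD -0.68 (replication). From Cy5 alone, HFD+1B minus chow was 0.16 (mitotic) and the interaction -0.36 (replication). With the mean over probes, HFD+1B minus HFD was -0.31 (replication), and Ccng1 in that comparison turned to -0.019 (adjusted p = 0.9). Compared with chow, Cy5 alone gave 0 calls for 1B, 1 for HFD, and 0 for HFD+1B, and HFD+1B gave 2 compared with HFD and 0 compared with 1B. At a 2-fold change with an unadjusted p, the comparisons other than that of 1B with chow gave 0 calls (0, 0, 0, and 0). Rrm2 in 1B against chow was left out by the filter on all 17 arrays, which leaves 0 called there. The interaction gave 1 call in the authors' table (Mcm2, -1.54, adjusted p = 0.0299) and 1 with the mean over probes (Mcm3, -0.51, adjusted p = 0.0494).

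Each of the 4 same-numbered pairs of HFD and HFD+1B correlated (0.15 to 0.48, median 0.20). In each other comparison a pair fell to 0.07 or lower, but the median was 0.23 for chow and 1B and 0.25 for 1B and HFD. Over all 24 pairs the range was -0.13 to 0.48 (median 0.18, against -0.05 for mice of different number). Many of these pairs shared a slide, and pairs on the same slide had a median of 0.20, against -0.04 for other pairs. Pairing by number was not separated from slide. With the replicate block, 12 genes were called in HFD+1B against HFD, 11 in HFD against chow, and 2 in the interaction (Mcm7, -0.73, adjusted p = 0.0458, and Ccnb2, 0.69, adjusted p = 0.0463). Of the 27 calls 25 were kept (Mcm4 in HFD+1B against HFD and Top2a in HFD+1B against 1B were lost). Gained in HFD against chow were Mcm7 (0.52, adjusted p = 0.0326), Ccnd1 (0.48, adjusted p = 0.0384), Bub1 (-0.61, adjusted p = 0.00594), and Kif23 (-0.43, adjusted p = 0.0455). Mki67 was gained in HFD+1B against chow (0.39, adjusted p = 0.0302).

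Without 1 mouse, the genes called ranged from 1 to 1 in 1B against chow, 3 (without HFD 4) to 9 for HFD and chow (4 without chow 3 or HFD 2), 3 (without chow 2) to 8 for HFD+1B and chow (4 without chow 1 or HFD+1B 5), 5 (without HFD 4) to 10 for HFD+1B and HFD, 2 (without 1B 1 or HFD+1B 4) to 6 for HFD+1B and 1B, and 0 to 2 in the interaction (2, Mcm2 and Mcm3, without HFD 1, and 1, Ccnb2, without HFD+1B 2 or 5). The replication median ranged over -0.12 to -0.04, 0.37 (without HFD 2) to 0.65, 0.04 to 0.13, -0.50 to -0.43, 0.09 to 0.16, and -0.55 to -0.39 in the same order, and the mitotic median over -0.04 to 0.05, -0.02 to 0.05, 0.01 to 0.09, 0.08 to 0.15, 0.0026 to 0.16, and 0.020 to 0.20 (the highest of both last ranges without 1B 2).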
